A study of Homo sapiens with 6 samples.

Results

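The 39 genes described here encode proteins of homologous recombination, the Fanconi anaemia pathway and the checkpoint kinases that act with them. They were chosen by name, as the rows of the deposited count table whose Ensembl identifier carries 1 of 39 fixed symbols in GENCODE release 44. All 39 were found among the 32750 genes of the table, and all 39 passed the filter on low counts that left 15372 genes to test. The cells were LX-2, a widely used line derived from human hepatic stellate cells, which lay down scar matrix in the injured liver. Poly(A) RNA was sequenced from 3 wild-type cultures that received a non-targeting siRNA and from 3 that are labelled as a transient ATP6AP1 knockdown by an siRNA against ATP6AP1. Neither siRNA dose nor time of harvest is stated in the sources used here. By the submitters' account the 3 libraries in a group are independent biological replicates.

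ATP6AP1, an accessory subunit of the lysosomal proton pump and the target of the siRNA, stood at 116, 117 and 129 CPM in the control libraries and at 144, 146 and 140 CPM in the libraries labelled ATP6AP1 siRNA. CPM is a read count scaled to the normalised library size. The target was therefore higher and not lower (log2 fold change 0.25, SE 0.0608, adjusted p = 0.00425), so the directions given compare libraries by their labels and describe no measured depletion. Whether the labels of the groups were exchanged was not tested, and if they were, every rise and fall given here would turn. Total counts ran from 15644464 to 19656533 per library. All 9 tested markers of stellate cells were lower in the labelled libraries, where the summed level of the 12 listed markers was 4258 to 4717 CPM against 7123 to 7712 CPM in the controls. The other 3 listed, decorin, lumican and desmin, did not pass the filter on low counts. Markers of hepatocytes (4.71 to 8.72 CPM in sum, led by SERPINA1), endothelium (17.3 to 22.5 CPM, led by TEK) and lymphocytes (0.0537 to 0.412 CPM) were low, those of macrophages summed to 58.2 to 72.9 CPM, nearly all of it CD68, and those of epithelium to 26.7 to 38.2 CPM, mostly SOX9. The part of these markers in the results was not tested.

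Homologous recombination repairs a broken chromosome by copying the intact sister chromatid. The MRE11-RAD50-NBN complex finds the break, nucleases trim its ends to single strands, and BRCA1, PALB2 and BRCA2 prepare the single strand to invade the sister chromatid. The Fanconi pathway removes crosslinks between the strands of DNA: a core complex attaches ubiquitin to the FANCD2-FANCI pair, which opens the way for nucleases and for recombination. ATM and ATR are the kinases that report damage, and many of these genes are known to be transcribed mainly in the S phase of the cell cycle, when a sister chromatid is at hand.

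Most of the 39 genes were higher in the libraries labelled ATP6AP1 siRNA. In edgeR's test 28 rose (71.8%), 5 fell (FANCF, RAD51B, RAD51C, NBN and CHEK2) and 6 did not pass (FANCC, FANCE, RAD52, RAD50, ATM and MUS81). Across all tested genes 26.7% rose and 26.6% fell. The median log2 fold change of the 39 was 0.29, against -0.0043 over all tested genes. Most changes were small: 8 members rose at least 1.5-fold, of which EXO1 alone reached 2-fold, and RAD51B was the one member lowered by at least 1.5-fold. All 3 labelled libraries lay above all 3 controls in 27 members, and below them in 5 (over all genes 29.8% and 29.7%, together 59.5%). In bulk RNA, a change in the share of cells that express a gene and a change in RNA per cell cannot be told apart. Tested against a fold of 1.2, 17 members rose and RAD51B fell (over all genes 15.5% and 14.6%).

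The balance of raised and lowered genes rests partly on how libraries were scaled. When only the library total was used, without a factor for composition, the median of all genes moved up by 0.14 on the log2 scale, and 32 members rose while RAD51B alone fell (over all genes 36.5% and 17.8%). The count of lowered members was also the less steady one when libraries were left out, at 2 without control replicate 1 and 3 without control replicate 2 or ATP6AP1 siRNA replicate 1. Of all genes 3513, 3350 and 3938 fell with these libraries left out, in that order, against 4083 in the main test. Of the 28 raised members, 22 passed under each of the 15 alternatives run for single genes.

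**Figure D1:**
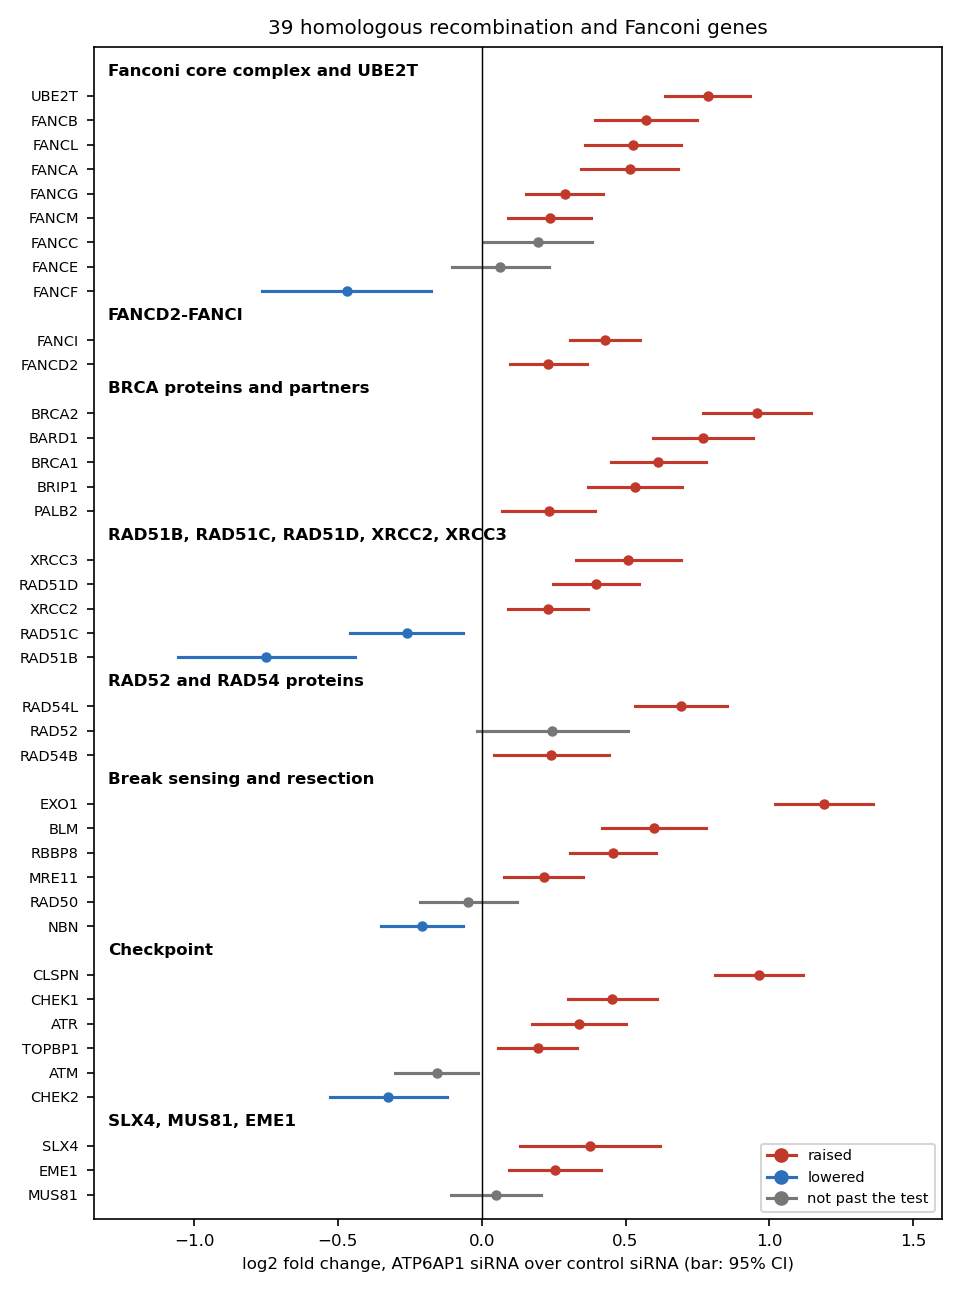
Log2 fold change of each of the 39 genes (x axis, libraries labelled ATP6AP1 siRNA over control libraries, points) with its 95% confidence interval (bars), grouped by role and coloured by the outcome of edgeR's test. 28 genes rose, 5 fell and 6 did not pass; EXO1 is highest at 1.19 and RAD51B lowest at -0.75.

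Sequences just upstream of the members' start sites are shown for the 4 raised and the 2 lowered genes that changed most in fold and have a usable entry, since genes that moved together are often compared by their promoters. The windows run from 250 bases before the RefSeq start site to 30 bases after it (GRCh38.p14, RefSeq), 280 bases each, 5′ to 3′ on the strand of the gene. Capitals mark letters found by a search on both strands for an E2F element (TTTCGCGC, TTTGGCGC, TTTCCCGC or TTTGCCGC, or the relaxed set TTCGCGCC, TTGGCGCC, TTCCCGCC and TTGGCGGG, whose matches can overlap those of the first set), a CCAAT box (CCAAT), a CHR element (TTTGAA or TTCGAA) and an ETS element (CCGGAAGT).
EXO1 (chr1:241847954-241848233, plus strand): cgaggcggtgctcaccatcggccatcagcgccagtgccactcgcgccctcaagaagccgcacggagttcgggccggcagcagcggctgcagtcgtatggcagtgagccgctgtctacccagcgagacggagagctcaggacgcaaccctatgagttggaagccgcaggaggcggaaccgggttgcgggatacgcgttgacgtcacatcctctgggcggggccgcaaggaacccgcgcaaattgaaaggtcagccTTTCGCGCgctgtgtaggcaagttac
CLSPN (chr1:35769949-35770228, minus strand): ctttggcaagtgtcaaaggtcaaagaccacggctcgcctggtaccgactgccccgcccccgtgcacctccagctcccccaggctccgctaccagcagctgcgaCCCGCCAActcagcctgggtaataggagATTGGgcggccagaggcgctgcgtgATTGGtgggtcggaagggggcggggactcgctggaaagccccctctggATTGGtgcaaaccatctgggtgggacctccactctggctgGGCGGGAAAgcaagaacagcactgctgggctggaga
BRCA2 (chr13:32315258-32315537, plus strand): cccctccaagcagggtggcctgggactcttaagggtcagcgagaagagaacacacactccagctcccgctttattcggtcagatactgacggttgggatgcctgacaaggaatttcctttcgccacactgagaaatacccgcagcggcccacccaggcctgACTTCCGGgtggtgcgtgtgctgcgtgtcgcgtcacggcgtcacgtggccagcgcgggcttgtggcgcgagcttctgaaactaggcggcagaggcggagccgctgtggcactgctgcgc
UBE2T (chr1:202341907-202342186, minus strand): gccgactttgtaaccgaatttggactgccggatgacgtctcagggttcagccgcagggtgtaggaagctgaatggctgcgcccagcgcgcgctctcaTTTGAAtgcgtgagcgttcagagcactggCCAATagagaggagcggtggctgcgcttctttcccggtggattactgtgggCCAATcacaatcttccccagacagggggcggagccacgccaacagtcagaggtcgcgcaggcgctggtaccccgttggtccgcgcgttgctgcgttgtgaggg
FANCF (chr11:22625794-22626073, minus strand): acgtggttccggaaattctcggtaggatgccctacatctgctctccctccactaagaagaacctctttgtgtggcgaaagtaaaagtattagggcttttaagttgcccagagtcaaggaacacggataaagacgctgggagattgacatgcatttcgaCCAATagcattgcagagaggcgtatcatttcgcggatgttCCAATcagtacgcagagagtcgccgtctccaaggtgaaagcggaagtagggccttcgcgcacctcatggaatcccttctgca
CHEK2 (chr22:28741791-28742070, minus strand): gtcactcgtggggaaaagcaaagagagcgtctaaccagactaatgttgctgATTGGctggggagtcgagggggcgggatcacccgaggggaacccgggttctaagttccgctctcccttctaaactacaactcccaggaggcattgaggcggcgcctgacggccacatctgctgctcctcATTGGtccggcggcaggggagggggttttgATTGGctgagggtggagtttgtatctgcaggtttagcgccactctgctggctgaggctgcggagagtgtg
The EXO1 window holds an E2F element that begins 4 bases after the start site. All matches in the CLSPN window are on the opposite strand. They are an E2F element whose first printed base lies 5 bases before the start site and a match of the relaxed set that overlaps it. Another match of the relaxed set lies 147 bases before the start, and there are 3 CCAAT boxes. In the UBE2T window there are 2 CCAAT boxes and a CHR element, and in that of BRCA2 1 ETS element. The lowered genes FANCF and CHEK2 have 2 and 3 CCAAT boxes and none of the other letters.

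Windows within 500 bases of the annotated start were found for 34 of the 39 members and for 9999 tested genes in all. The first E2F set occurred in 7 of the 34 (20.6%) and in 5.44% of all 9999 windows. Either E2F set occurred in 13 of the 34 (38.2%) against 12.9% of all. Of those 13, 11 had risen (FANCA, FANCD2, FANCL, BRIP1, RAD54L, BLM, CLSPN, EXO1, TOPBP1, XRCC2 and XRCC3). None had fallen, and FANCC and RAD52 had not passed. Among the raised, XRCC3 is uncertain for its shared sequence, and the calls of TOPBP1 and XRCC2 were lost under some alternatives. Of all 34 members with a window, 25 had risen and 3 had fallen. Over all tested genes with either E2F set in the window, 36.7% rose and 23.3% fell. The CCAAT box occurred in 15 members (44.1%, against 36.8%; 11 raised and 2 lowered), the CHR element in 4 (11.8%, against 9.90%) and the ETS element in 6 (17.6%, against 9.15%). The letters GGGCGG of the GC box occurred in 24 (70.6%, against 74.1%), of which 19 had risen and 1 had fallen. An NRF1 element was found in SLX4 alone and a YY1 element in no member. A match of letters is a description of the window and shows no binding.

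Genes of the Fanconi core complex rose in part. Of the 8 core members and their ubiquitin-conjugating enzyme UBE2T, 6 rose, FANCF fell and 2 did not pass. UBE2T (ENSG00000077152, chromosome 1, 202331544 to 202341984 on GRCh38, minus strand), which hands ubiquitin to FANCD2, stood at 69.5, 70.5 and 62.1 CPM in the controls and at 112, 113 and 123 CPM in the labelled libraries. Its groups were far apart, with a 1.72-fold difference (95% confidence interval 1.56 to 1.91, edgeR adjusted p = 9.53e-07). FANCL, the ubiquitin ligase of the complex, had 38.6, 33.1 and 33.8 CPM in the controls and 48.4, 50.1 and 53.3 CPM in the labelled libraries. This was a log2 fold change of 0.53 (SE 0.0777, adjusted p = 9.18e-05). FANCB and FANCA, which help to assemble the ligase with FANCG, rose by 0.57 and 0.51 on the log2 scale. For FANCB the values were 23.2, 22.5 and 23.3 CPM against 30.8, 35.9 and 35.7 CPM, and for FANCA 42.2, 44.8 and 43.1 CPM against 64.8, 66.1 and 55.0 CPM. In both genes each labelled library exceeded each control. ZNF276 on the opposite strand overlaps 19.6% of the exon bases of FANCA.

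FANCG, on chromosome 9, and FANCM, the translocase that anchors the complex to DNA, rose less, by 0.29 and 0.24 on the log2 scale, again without overlap between groups. FANCC and FANCE did not pass the test (log2 fold changes 0.20 and 0.065, adjusted p = 0.0751 and 0.511), and in both the groups overlapped. FANCC passed without ATP6AP1 siRNA replicate 3, at 0.27 (adjusted p = 0.0153), with the trend on gene span removed, at 0.62 (9.82e-05), and with library size alone, as FANCE did; over all alternatives its adjusted p reached 0.271. FANCF (chromosome 11, 22622533 to 22625823), a small adaptor with a single exon that holds FANCC and FANCE in the complex, went the other way. It stood at 7.54, 7.14 and 6.70 CPM in the controls and at 5.39, 4.71 and 5.32 CPM in the labelled libraries. All 3 labelled values were below the controls, a 1.39-fold lower level (log2 fold change -0.47, SE 0.136, adjusted p = 0.0108), but FANCF had few reads and did not pass with library size alone (-0.33, adjusted p = 0.0547, the highest over alternatives). The opposite-strand gene GAS2 covers 9.57% of its exon bases.

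The substrate pair of the core complex rose together. FANCI (chromosome 15, 89243945 to 89317261) went from 201, 193 and 201 CPM to 254, 277 and 268 CPM, a log2 fold change of 0.43 (SE 0.0561, adjusted p = 3.39e-05). For FANCD2, its partner, the values were 55.6, 55.4 and 52.5 CPM and 64.4, 63.7 and 63.8 CPM, a log2 fold change of 0.23 (adjusted p = 0.00621). The ratio of FANCI to FANCD2 reads, which does not depend on the scaling of the library, was 3.61, 3.49 and 3.83 in the controls and 3.95, 4.34 and 4.20 in the labelled libraries. The ratios did not overlap (exact permutation p = 0.1, two-sided, the smallest that 3 against 3 libraries can give). This ratio and those of other pairs given here are among 9 that were computed, all chosen after the values were seen.

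All 5 genes of the BRCA group rose. BRCA2 (ENSG00000139618, chromosome 13, 32315086 to 32400268), which acts on single-stranded DNA at trimmed breaks, stood at 50.9, 42.1 and 44.4 CPM in the controls and at 79.4, 93.1 and 94.1 CPM in the labelled libraries. Every labelled library was above every control. The fold change was 1.94 (95% confidence interval 1.70 to 2.21, edgeR adjusted p = 1.36e-06). BRCA1 (chromosome 17, 43044295 to 43170245), a ubiquitin ligase that promotes end trimming, had 81.2, 70.5 and 80.5 CPM against 107, 124 and 124 CPM, 1.53-fold higher (adjusted p = 2.15e-05). For BARD1, the obligate partner of BRCA1, the values were 36.7, 36.2 and 39.04 CPM and 57.6, 62.8 and 70.2 CPM, 1.71-fold higher (adjusted p = 4.51e-06). The ratio of BARD1 to BRCA1 reads was 0.483 ± 0.0312 in the controls and 0.537 ± 0.0307 in the labelled libraries (SD, n = 3 each), and its values overlapped between groups (exact permutation p = 0.2).

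BRIP1, a helicase that binds BRCA1 and spans 184 kb, went from 65.8, 63.8 and 60.5 CPM to 83.3, 90.8 and 101 CPM (log2 fold change 0.53, adjusted p = 6.04e-05). PALB2, the bridge between BRCA1 and BRCA2, changed least of the 5, from 32.6, 30.7 and 33.1 CPM to 35.3, 37.8 and 40.1 CPM. Its log2 fold change of 0.23 (SE 0.0749, adjusted p = 0.0187) did not pass without control replicate 2 (0.21, adjusted p = 0.0726), ATP6AP1 siRNA replicate 2 (0.23, 0.0585) or ATP6AP1 siRNA replicate 3 (0.19, 0.0594), nor with the trend on gene span removed (0.14, 0.144, the highest over alternatives).

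Of RAD51B, RAD51C, RAD51D, XRCC2 and XRCC3, which assist strand exchange, 3 rose and 2 fell. RAD51B, RAD51C, RAD51D and XRCC2 are known to form 1 complex, and RAD51C forms another with XRCC3. RAD51D (chromosome 17, 35092221 to 35121522) rose from 42.6, 41.3 and 39.9 CPM to 51.1, 57.0 and 55.1 CPM, a log2 fold change of 0.40 (SE 0.0690, adjusted p = 0.000326). XRCC2 rose from 38.7, 38.9 and 39.3 CPM to 45.8, 46.6 and 44.7 CPM (0.23, adjusted p = 0.00873), and its 3 values varied little within either group. With the trend on gene span removed XRCC2 was at 0.12 and did not pass (adjusted p = 0.117, the highest over alternatives). XRCC3 rose by 0.51 (adjusted p = 0.000234), but 68.3% of the 50-base windows in its transcripts also occur in those of other genes, and exons of KLC1 on the opposite strand cover much of it, so that its value is uncertain.

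RAD51B and RAD51C were lower. RAD51B (ENSG00000182185, chromosome 14, 67819779 to 68730218), the longest member at 910 kb, stood at 9.30, 12.03 and 11.2 CPM in the controls and at 6.06, 5.79 and 7.46 CPM in the labelled libraries. The groups did not overlap, and the level was 1.68-fold lower (log2 fold change -0.75, SE 0.142, adjusted p = 0.000646). Among all genes the longest were more often lower too, and with each library's trend on gene span removed RAD51B was at -0.064 (adjusted p = 0.713, the highest over alternatives). RAD51C had 52.9, 48.6 and 44.3 CPM in the controls and 38.1, 37.7 and 45.6 CPM in the labelled libraries, with 1 labelled value above the lowest control. The call, at -0.26 on the log2 scale (adjusted p = 0.0268), was lost with library size alone (-0.13, adjusted p = 0.263, the highest over alternatives), and with control replicate 1 (0.142), control replicate 2 (0.0808), ATP6AP1 siRNA replicate 1 (0.0828) or ATP6AP1 siRNA replicate 2 (0.123) left out (adjusted p in brackets). The ratio of RAD51D to RAD51B reads was 4.58, 3.43 and 3.56 in the controls and 8.43, 9.83 and 7.38 in the labelled libraries. That of XRCC2 to RAD51C was 0.731 to 0.887 in the controls and 0.981 to 1.24 in the labelled libraries. Neither ratio overlapped between groups (exact permutation p = 0.1 each). For RAD51D and RAD51B this follows from their own values, which lay all above and all below the controls.

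Of the strand-annealing protein RAD52 and the DNA translocases RAD54L and RAD54B, RAD54L rose most. RAD54L (chromosome 1, 46246461 to 46278480) went from 41.6, 37.2 and 39.1 CPM to 63.5, 67.7 and 59.1 CPM, 1.62-fold higher (95% confidence interval 1.45 to 1.81, adjusted p = 5.78e-06). LRRC41 on the opposite strand overlaps 19.9% of its exon bases. RAD54B had a log2 fold change of 0.24 (adjusted p = 0.0401), with overlapping groups and with 63.3% of its windows shared with FSBP and other transcripts, so that it is uncertain. The call was lost in DESeq2 (0.0775), with no filter (0.0525), and without control replicate 1 (0.0795), control replicate 2 (0.147), ATP6AP1 siRNA replicate 2 (0.126) or ATP6AP1 siRNA replicate 3 (0.0947, adjusted p in brackets); the highest over alternatives was 0.147. RAD52 was at 0.25, but at 6.82 to 9.34 CPM over all libraries it did not pass (adjusted p = 0.107).

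EXO1, the exonuclease that carries out long-range trimming of DNA ends, had the largest rise of the 39. EXO1 (ENSG00000174371, chromosome 1, 241847967 to 241895148) stood at 25.8, 23.7 and 22.4 CPM in the controls and at 52.4, 58.3 and 53.4 CPM in the labelled libraries. Every labelled library was far above every control. The fold change was 2.28 (95% confidence interval 2.03 to 2.57, adjusted p = 9.94e-08), which placed EXO1 at rank 407 of 15372 genes by fold. BLM (chromosome 15, 90717346 to 90816166), a helicase that acts with it and unwinds recombination intermediates, went from 42.7, 37.7 and 38.7 CPM to 53.3, 64.5 and 62.4 CPM, 1.51-fold higher (adjusted p = 5.75e-05). RBBP8, which encodes CtIP and starts the trimming with MRE11, rose by 0.46 on the log2 scale (adjusted p = 0.000106) over a gene span of 228 kb.

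Of the MRE11-RAD50-NBN complex, MRE11 rose, NBN fell and RAD50 did not pass. MRE11, its nuclease, rose from 54.2, 50.8 and 50.7 CPM to 59.4, 60.2 and 61.1 CPM (log2 fold change 0.21, SE 0.0628, adjusted p = 0.0114). NBN (chromosome 8), the subunit that recruits ATM, was at 71.7, 69.1 and 67.9 CPM in the controls and at 56.2, 62.5 and 61.9 CPM in the labelled libraries, all below the controls. Its log2 fold change of -0.21 (adjusted p = 0.0167) did not pass with library size alone (-0.072, adjusted p = 0.365, the highest over alternatives) or without control replicate 1 (0.0777), control replicate 2 (0.0556) or ATP6AP1 siRNA replicate 1 (0.0508, adjusted p in brackets). The ratio of MRE11 to NBN reads was 0.756, 0.736 and 0.746 in the controls and 1.06, 0.962 and 0.988 in the labelled libraries, with no overlap (exact permutation p = 0.1). This follows from the values of MRE11 and NBN, which lay all above and all below the controls. RAD50, the long coiled-coil subunit, did not pass at -0.047 on the log2 scale (adjusted p = 0.641). Its value is uncertain, since 73.0% of its windows lie in an overlapping transcript annotated as another gene.

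**Figure D2:**
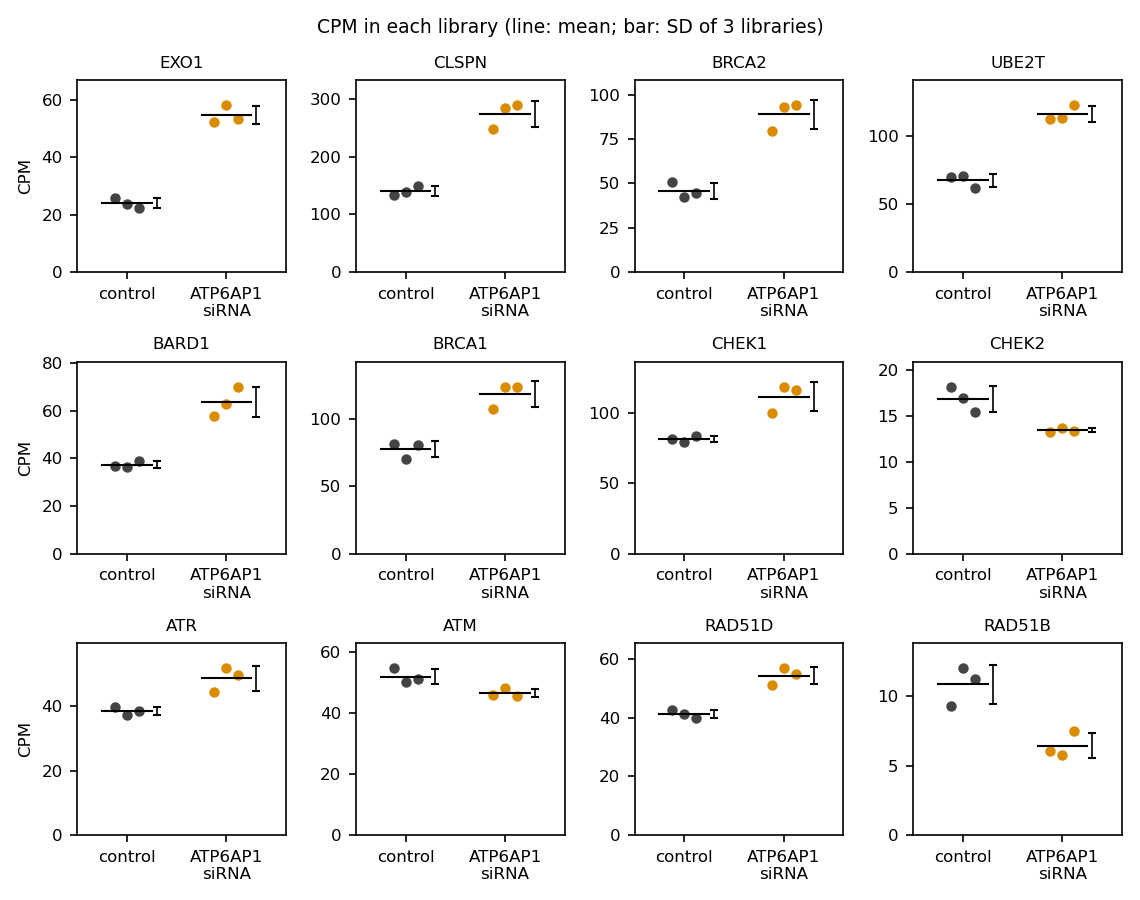
CPM (y axis, from 0) in each of the 3 control libraries and the 3 libraries labelled ATP6AP1 siRNA for 12 of the genes, with the mean (line) and the SD (bar). In CHEK2, ATM and RAD51B the labelled libraries lie below the controls, and in the other genes shown all labelled libraries lie above them.

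Of the 6 checkpoint genes CLSPN, CHEK1, ATR and TOPBP1 rose, CHEK2 fell and ATM did not pass. CLSPN (ENSG00000092853, chromosome 1, 35720218 to 35769978) encodes claspin, the adaptor through which ATR activates CHEK1. It stood at 133, 139 and 149 CPM in the controls and at 248, 285 and 290 CPM in the labelled libraries, 1.95-fold higher (95% confidence interval 1.75 to 2.17, adjusted p = 2.41e-07). CHEK1, the effector kinase, went from 81.4, 79.7 and 84.0 CPM to 100.1, 119 and 116 CPM (log2 fold change 0.45, adjusted p = 0.000156). For ATR, the kinase that responds to single-stranded DNA, the values were 39.9, 37.2 and 38.3 CPM and 44.3, 51.8 and 49.7 CPM (0.34, SE 0.0755, adjusted p = 0.00214). In these 3 genes each labelled library was above each control. TOPBP1, the activator of ATR, rose by 0.19 (adjusted p = 0.0209), a call that was lost without control replicate 2 (0.0546), ATP6AP1 siRNA replicate 2 (0.0917) or ATP6AP1 siRNA replicate 3 (0.0602, adjusted p in brackets); the highest over alternatives was 0.0917.

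ATM (chromosome 11, 108223044 to 108369102), the kinase that responds to double-strand breaks, was at 54.6, 49.9 and 50.9 CPM in the controls and at 45.9, 48.1 and 45.4 CPM in the labelled libraries. Its groups did not overlap, but its log2 fold change of -0.16 did not pass (95% confidence interval of the fold 0.811 to 0.992, adjusted p = 0.0653) and was 0.022 with the gene span trend removed. CHEK2 (chromosome 22, 28687743 to 28742422), the effector kinase of ATM, had 18.2, 16.9 and 15.4 CPM in the controls and 13.3, 13.7 and 13.3 CPM in the labelled libraries, all lower. The log2 fold change of CHEK2 was -0.33 (SE 0.0942, adjusted p = 0.0107). It did not pass without control replicate 1 (-0.25, adjusted p = 0.0614) or with library size alone (-0.19, adjusted p = 0.111, the highest over alternatives). Reads of CHEK1 outnumbered those of CHEK2 by 4.48, 4.71 and 5.47 to 1 in the controls and by 7.54, 8.68 and 8.75 to 1 in the labelled libraries. The ratio of ATR to ATM reads was 0.730, 0.745 and 0.753 against 0.963, 1.08 and 1.09, and that of BRCA2 to ATM reads 0.932, 0.844 and 0.872 against 1.73, 1.94 and 2.07. None of these 3 ratios overlapped between groups (exact permutation p = 0.1 each). That follows from values already given, since CHEK1, ATR and BRCA2 lay above all controls and CHEK2 and ATM below them. These ratios are therefore no separate evidence.

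Of the 3 genes of nucleases that cut joined DNA molecules, SLX4 and EME1 rose and MUS81 did not pass. SLX4, the scaffold of these nucleases, had 18.4, 21.7 and 23.8 CPM in the controls and 30.01, 29.3 and 23.7 CPM in the labelled libraries, with the groups just overlapping. Its log2 fold change of 0.38 (SE 0.112, adjusted p = 0.0124) did not pass without control replicate 1 (0.30, adjusted p = 0.0575) or ATP6AP1 siRNA replicate 2 (0.33, 0.0540), nor with the gene span trend removed (0.27, 0.0587, the highest over alternatives). EME1, the partner of the nuclease MUS81, rose from 23.2, 23.5 and 22.1 CPM to 27.2, 27.8 and 27.0 CPM (0.25, adjusted p = 0.0114) and did not pass with the span trend removed (0.16, 0.0849, the highest over alternatives). MUS81 was at 0.050 and did not pass (adjusted p = 0.586), but passed with library size alone (0.19, adjusted p = 0.0420). Genes on the opposite strand overlap 16.4% of the exon bases of EME1 and 14.1% of those of MUS81.

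Compared per kilobase of the MANE Select transcript, control levels of the 39 ranged from 2.17 CPM per kb for FANCF to 76.7 CPM per kb for UBE2T. After UBE2T came FANCI at 41.9, FANCG at 32.7, RBBP8 at 31.9 and MUS81 at 27.1 CPM per kb. The large proteins BRCA2, ATM and ATR were among the lowest, at 3.83, 4.01 and 4.71 CPM per kb. Raw counts behind these values ran from 78 upward per library and gene, with a median of 862, and the SE of the log2 fold change from 0.0561 to 0.142. Within the labelled group replicate 1 was the lowest of the 3 libraries in 24 of the 39 members (61.5%), and in 39.4% of all tested genes. Without that library 28 members still rose, and 3941 of the 15695 genes then tested.

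The members are long genes, with a median span of 73.3 kb against 30.8 kb over all tested genes, and long genes were more often lower in the labelled libraries. Of tested protein-coding genes spanning at least 100 kb, 12.1% rose and 50.6% fell (n = 2593). Of the 9 members of that length, 6 rose (FANCB, BRCA1, BRIP1, RBBP8, RAD54B and ATR), RAD51B fell, and FANCC and ATM did not pass. RAD54B is uncertain for its shared windows, and its groups overlapped. Between 50 and 100 kb 11 of 15 members rose, against 27.2% of protein-coding genes, and under 50 kb 11 of 15, against 34.7%. With each library's trend on gene span removed 25 members rose and 4 fell, with a median log2 fold change of 0.29. Over all 15372 genes 3664 rose and 4284 fell under that setting, with a median of -0.030.

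**Figure D3:**
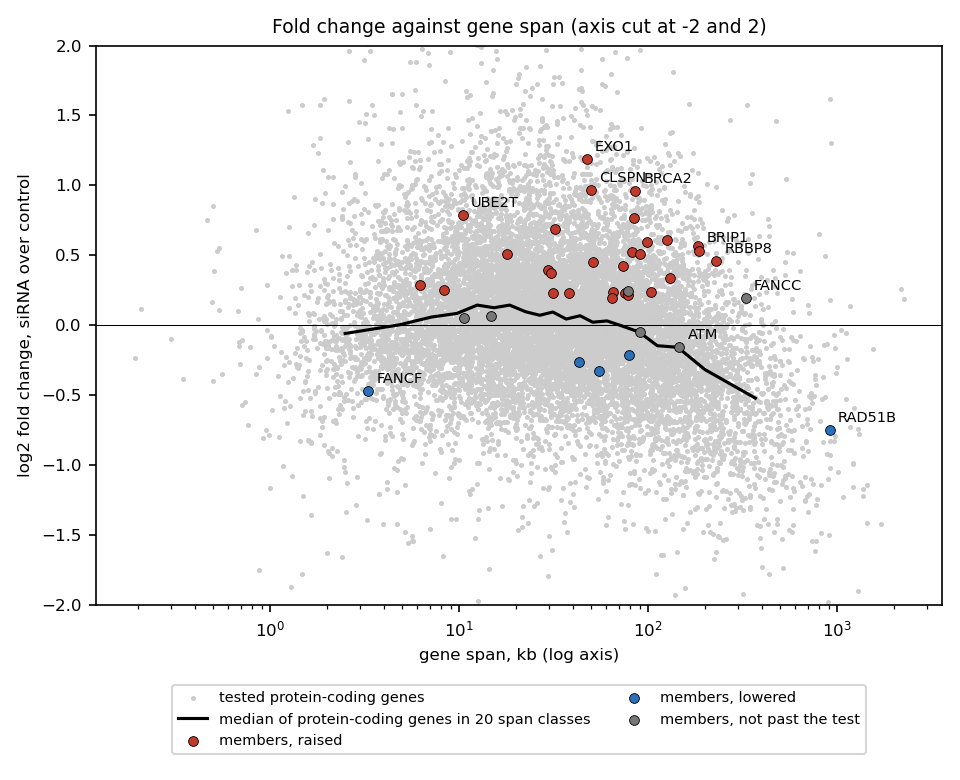
Log2 fold change (y axis, cut at -2 and 2) against gene span in kb (x axis, log scale) for tested protein-coding genes (grey), their median in 20 classes of span (black line) and the 39 members, coloured by the outcome of the test. The line falls below 0 in the longest genes, where 6 of the 9 members over 100 kb rose, RAD54B among them with an uncertain value.

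Other genes of the same pathways were taken from a fixed list of 67, of which 65 were tested. Of these, 33 rose (50.8%) and 8 fell (12.3%), with a median log2 fold change of 0.21. By adjusted p the first 4 raised were PSMC3IP, a cofactor of strand exchange (0.98), the junction resolvase GEN1 (1.07), HUS1 of the checkpoint clamp (1.07) and the damage mediator MDC1 (0.83). Among the lowered were BABAM2 and ABRAXAS1, both of a BRCA1 complex that trims ubiquitin chains, at -1.18 and -0.49, the clamp loader RAD17 at -0.33 and the translesion polymerase REV1 at -0.31. BABAM2 spans 449 kb. The count of lowered genes in this list was 5 without control replicate 1 or ATP6AP1 siRNA replicate 2.

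Of 21 tested genes of the competing route of end joining, 9 rose (42.9%) and 4 fell (19.0%). Over all tested genes the shares were 26.7% and 26.6%. The first raised by adjusted p were SHLD1 of the shieldin complex (1.12), the polymerases POLQ (0.52) and POLL (0.60) and RIF1 (0.47). XRCC6 and XRCC5, the Ku subunits that bind broken ends, fell from 707 ± 2.20 to 512 ± 4.45 CPM and from 538 ± 6.53 to 420 ± 24.6 CPM (SD, n = 3 each), and XRCC4 fell by 0.44. SHLD2, at -0.52, is uncertain with 54.4% of its windows shared. Whether end joining and the 39 genes differ was not tested. Of 18 mismatch repair genes, 8 rose (44.4%), led by POLD3 (0.83), and POLD4 fell.

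Genes of DNA replication and the cell cycle were also mostly higher. Over all tested genes 26.7% rose and 26.6% fell. Of 26 genes of origin licensing and firing, 17 rose (65.4%) and 4 fell (15.4%), with CDC6 at 1.11 and TICRR at 1.17. Of 39 genes of a G1/S list, without the members it holds, 31 rose (79.5%) and only MCM6 fell, with a median log2 fold change of 0.36. Of 54 genes of a G2/M list, 34 rose (63.0%) and 3 fell (ANLN, LBR and ECT2), with a median of 0.29. The transcriptional repressor E2F8 stood at 12.2 ± 1.12 CPM in the controls and 54.7 ± 3.13 CPM in the labelled libraries, and the proliferation marker MKI67 at 317 ± 7.86 and 542 ± 18.3 CPM (SD, n = 3 each). Of 25 p53 targets 19 rose (76%), among them CDKN1A (0.86) and GADD45A (1.90), and PLK2 and BAX fell. The part of cell cycle distribution in the members' values was not tested.

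**Figure D4:**
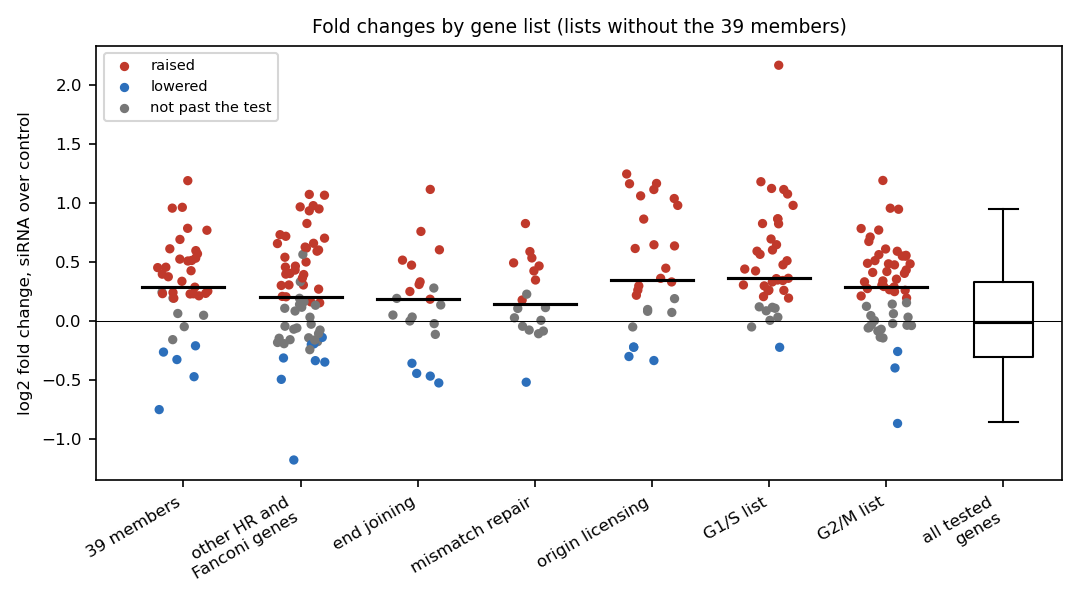
Log2 fold change (y axis) of each tested gene of the 39 members and of 6 comparison lists without the members (points, coloured by the outcome of the test, line at the median), beside a box of all 15372 tested genes (quartiles and median, whiskers at percentiles 5 and 95). The medians of the lists lie between 0.15 and 0.36, and that of all genes is near 0.

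Several members share a start region with a gene on the opposite strand. Taking MANE Select starts that point away from each other, at most 1000 bases apart or overlapping by up to 500, 9 members had a protein-coding neighbour, 8 of them tested. Of the 8 tested neighbours 3 rose, 2 fell and 3 did not pass. In no pair did both genes pass the test in 1 direction, and in 4 they passed in opposite directions. How often such pairs go in opposite directions over all genes was not computed, so these counts have no background. ATM and NPAT, a coactivator of histone genes, start 429 bases apart. NPAT stood at 36.9 ± 2.76 CPM in the controls and 53.3 ± 7.99 CPM in the labelled libraries (SD, n = 3 each) and rose by 0.53 on the log2 scale (adjusted p = 0.000706), while ATM did not pass at -0.16. CHEK2 fell and HSCB, 219 bases away, rose by 0.51 (adjusted p = 0.000261), although their exons overlap and the strand setting of the counting is not given. Also in opposite directions went FANCB and MOSPD2 (-0.27), XRCC3 and ZFYVE21 (-0.23), and RAD51C and TEX14 (1.81). TEX14 was near 1 CPM in the controls. The value of XRCC3 is uncertain, and the call of RAD51C was lost under 6 alternatives. ZAR1L, the neighbour of BRCA2, did not pass the filter, and the neighbours of EME1, MRE11 and PALB2 did not pass the test.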

How the data were processed

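Libraries were made from TRIzol RNA after oligo(dT) selection, with random-hexamer priming, and read as paired ends, per the labels' protocols. GRCh38 (hg38) and, without versions, the tools HISAT2, featureCounts, Trimmomatic, FastQC and DESeq2 are named in the submitters' processing notes. No source used here states the annotation release, the strand setting or how reads with several alignments were counted. The authors deposited 1 table of estimated counts (expected counts, 12.3 to 13.9% of values per library not whole), which were rounded. GENCODE release 44 held 28456 of the 32750 identifiers; the 4294 others had 0.209 to 0.258% of counts.

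Genes were kept with filterByExpr and compared with edgeR 4.0.16 (R 4.3.3): TMM factors (0.949 to 1.06), two-sided quasi-likelihood F test, group as the only term, Benjamini-Hochberg adjustment over 15372 genes, threshold 0.05. Every adjusted p is from this test unless another is named. SE is the log2 fold change over the square root of F. Steps were tested on simulated data in which far fewer genes changed than here. That simulation did not check the scaling of libraries under so broad a change. Alternatives used DESeq2 1.42.0 and limma 3.58.1. No 2 libraries were duplicates: within groups the chi-square per gene was 3.63 to 9.50, and between groups it was 51.5 to 59.8. The lowest member count in a library was 78, and counting error is only 1 part of the error of a single library. Genes with over 30% of their 50-base transcript windows in other genes' transcripts are called uncertain (3 members). Genes named beyond the members are, for each list, up to 4 per direction with the lowest adjusted p, of which some are given here, and others where said. Members, lists and rules were chosen with earlier results of these data known.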

Additional observations from a re-analysis of the deposited data

How the results depend on the processing

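Of the 15 alternatives run for each member, DESeq2's size factors, limma-voom, unrounded values and a filter of 5 CPM in 3 libraries left all 39 outcomes as they were, and no filter and DESeq2's own test each lost RAD54B. Signs turned only in members that had not passed: RAD50 was at 0.090 with library size alone and ran from -0.10 to 0.022 with 1 library left out (0.022 without control replicate 3, 0.011 without ATP6AP1 siRNA replicate 1), and with the gene span trend removed FANCE, MUS81 and ATM were at -0.084, -0.069 and 0.022. Members lowered numbered 1 with library size alone, 1 at an adjusted p of 0.01 (with 22 raised) and 1 against a fold of 1.2 (with 17 raised). With 1 library left out 2 to 5 members fell and 24 to 28 rose. Other repair genes lowered, 8 in the main test, numbered 3 with library size alone, 2 against a fold of 1.2, 5 at an adjusted p of 0.01 and 5 to 8 with 1 library left out. Of all 15372 genes, 2386 rose and 2250 fell against a fold of 1.2, and 3104 rose and 3097 fell at an adjusted p of 0.01. With 1 library left out, 3429 to 4077 of the 15690 to 15737 genes then tested rose and 3350 to 4010 fell. ATP6AP1 was at 0.15 with the span trend removed and did not pass (adjusted p = 0.0549). Libraries with the same replicate number did not deviate together (correlations of deviations -0.0879, -0.0291 and -0.102 for numbers 1 to 3). No pairing by number was seen in these values. With the replicate number as a block, 26 members rose and 3 fell, 5 other repair genes fell, and of all 15372 genes 3619 rose and 3576 fell. The members that did not pass with the block were RAD51C (adjusted p = 0.0616), NBN (0.0534), RAD54B (0.0671) and TOPBP1 (0.0571). RAD51B, at the far end of the span axis, is the member whose call rests most on the span trend, and low counts limit FANCF, RAD51B and RAD52.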
